A study of Rattus norvegicus with 4 samples.

Results

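miR-199a-5p, miR-199a-3p, miR-214-3p and miR-214-5p are the 4 arms of 2 microRNA (miRNA) hairpins that lie near each other on rat chromosome 13, and their reads were followed in small RNA libraries of vascular smooth muscle cells. A tag, meaning 1 distinct read sequence with its count, was given to a member if its first 18 nt equalled those of the member's mature sequence. The 4 members stand among 683 distinct mature starts in a RefSeq table of rat miRNAs, of which 405 had reads in these libraries. The cells came from the aorta of Sprague-Dawley rats, were grown with 10% FBS and, in every group, were kept without serum for 48 h. They were then left untreated (control) or treated with 100 nM Ang II (angiotensin II, a peptide that constricts vessels by acting on smooth muscle) for 1 h, 3 h or 24 h. The comparison is of each Ang II time with the untreated cells.

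Each group is 1 library, so there is no replicate check and no test of conditions at any point below. The 95% intervals are exact for independent reads and reflect counting error alone. PCR copies of a molecule are not independent, so the intervals can be too narrow even for that error. The control has no time label, so effects of Ang II cannot be told apart from those of time in culture, and the labels name neither the number of cultures nor of animals. The libraries held 13119417 to 14534892 reads that name a sequence, and 68.4% to 74.4% of these began like a RefSeq mature miRNA. The 4 smooth muscle arms of miR-143 and miR-145 summed to between 251047 and 312678 RPM (reads scaled to a library of 1000000), against 105 to 125 RPM for the 2 endothelial arms of miR-126a. Of the smooth muscle sum in the control, miR-143-3p made up 248197 RPM, miR-145-5p 2275 RPM, miR-143-5p 335 RPM and miR-145-3p 240 RPM. Of 6 matched blood and immune arms 3 were at 0 in every library, and the list summed to 0.695 to 1.32 RPM.

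A miRNA hairpin is cut out of a longer transcript by Drosha and then by Dicer, which leaves a duplex of a 5p and a 3p strand. A strand that is loaded into Argonaute finds mRNAs mainly through its seed, bases 2 to 8, so a shift of the 5' end changes the seed while a shift of the 3' end does not. miR-199a and miR-214 are known from fibroblasts, smooth muscle and other mesenchymal cells, where both hairpins are made from a transcript that runs opposite to the dynamin gene Dnm3. Twist1, a factor of the mesenchymal state, is known to drive that transcript. Among known targets, miR-199a-5p acts on caveolin 1, miR-199a-3p on the growth kinase mTOR, and miR-214-3p on the histone methyltransferase Ezh2.

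The sequences counted are printed 5' to 3' with the seed in capitals, because the seed and the ends are what the results below turn on. 3 of the 4 are RefSeq mature entries (build GRCr8, plus strand), and miR-214-5p is the tag most read in the hairpin's 5' arm.
miR-199a-5p: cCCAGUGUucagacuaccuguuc
miR-199a-3p: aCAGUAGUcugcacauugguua
miR-214-3p: aCAGCAGGcacagacaggcag
miR-214-5p: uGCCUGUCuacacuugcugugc
The positions are chr13:77116255-77116277 for miR-199a-5p, chr13:77116294-77116315 for miR-199a-3p, chr13:77121713-77121733 for miR-214-3p and chr13:77121672-77121693 for miR-214-5p. The genes Mir199a2 (chr13:77116225-77116334) and Mir214 (chr13:77121645-77121752) are 5310 bases apart, and both lie within the span of Dnm3 (chr13:76892381-77371346), which is annotated on the minus strand. The tables used here do not give the exons of Dnm3. The mature miR-199a arms can also come from other hairpins, and reads do not tell such copies apart. The seeds of miR-199a-3p and miR-214-3p differ at 2 of 7 bases, U5C and U8G, counted from the 5' end of miR-199a-3p. No other mature entry of the table shares a seed with a member.

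The RefSeq entry named miR-214-5p is another sequence, of 17 nt, and it had almost no reads. It covers positions 12 to 28 of the 108 nt hairpin, while the most read tag of that arm covers positions 28 to 49, an overlap of 1 base.
miR-214-5p, RefSeq entry: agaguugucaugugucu
Mir214 hairpin, both read products in capitals: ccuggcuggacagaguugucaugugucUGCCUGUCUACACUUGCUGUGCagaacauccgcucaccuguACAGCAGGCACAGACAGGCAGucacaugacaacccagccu
Tags that begin with the RefSeq entry had 0 reads without Ang II, 0 after 1 h, 2 after 3 h and 2 after 24 h, and 0 reads in the control allow up to 0.208 RPM. The tags of the 5' arm product had 336, 331, 300 and 295 reads. The name miR-214-5p stands for this product below.

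The 2 arms of miR-199a were far more abundant than those of miR-214. miR-199a-3p ranked 27th to 33rd of all mature starts, miR-199a-5p 37th to 41st, miR-214-3p 95th to 100th and miR-214-5p 120th to 127th. The 4 members together made up 0.350% of the miRNA reads without Ang II, 0.280% after 1 h, 0.294% after 3 h and 0.315% after 24 h.

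No member differed from the control by 1.5-fold at any time. A miRNA was called where the log2 ratio of (RPM + 1) passed 1.5-fold, provided that 100 reads were reached in 1 of the 2 libraries compared. At 1 h 0 of 4 were called, while 2.35% of 170 miRNAs were called lower and 2.35% higher. At 3 h 0 of 4 were called, beside 4.65% of 172 lower and 4.07% higher. At 24 h 0 of 4 were called, beside 17.2% of 174 lower and 5.17% higher, a split that was 6.32% lower and 8.62% higher with TMM factors, where the median log2 ratio of all miRNAs was 0.0019. The median log2 ratio of the members was -0.23, -0.14 and -0.23 for 1 h, 3 h and 24 h, against -0.10, -0.06 and -0.25 for all miRNAs tested. The 3 ratios of a member share 1 control library.

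**Figure D1:**
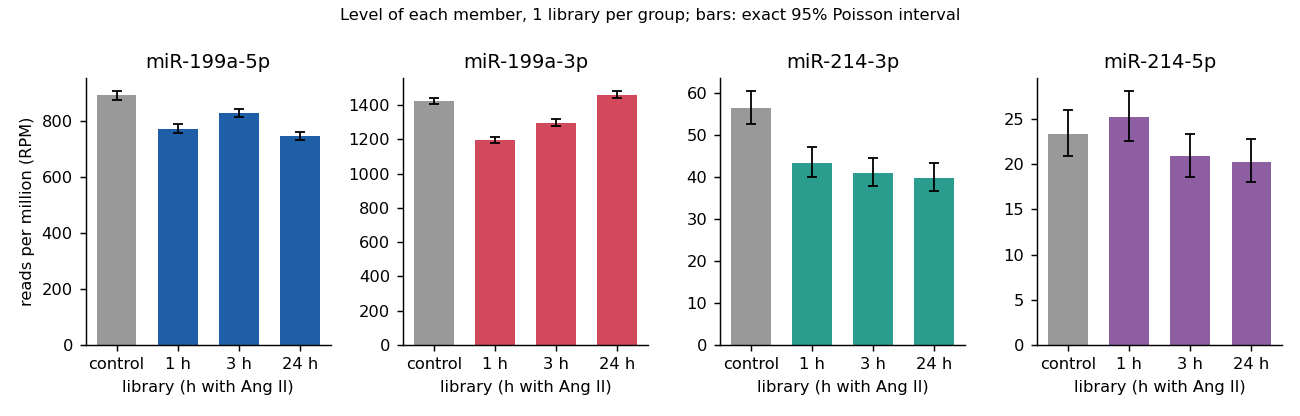
Level of each member in RPM (y axis, own scale per panel) in the control (grey) and after 1 h, 3 h and 24 h of Ang II (x axis), 1 library each, with exact 95% Poisson intervals as bars. miR-214-3p lies at 39.9 to 43.4 RPM in the 3 Ang II libraries and at 56.5 RPM in the control, while miR-199a-3p lies at 1463 RPM at 24 h and at 1424 RPM in the control.

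miR-199a-3p had 20501 reads in the control (1424 RPM, 1405 to 1444), 15717 at 1 h (1198 RPM, 1179 to 1217), 18659 at 3 h (1298 RPM, 1280 to 1317) and 21264 at 24 h (1463 RPM, 1443 to 1483). The 1 h library was thus the lowest and the 24 h library the highest, by less than 1.5-fold. The ratio to the control was 0.841 at 1 h (0.824 to 0.859), 0.912 at 3 h (0.894 to 0.930) and 1.03 at 24 h (1.01 to 1.05), where the log2 ratio was 0.04, and -0.03 scaled to miRNA reads, 0.30 with TMM and 0.29 with median-of-ratios factors. At 3 h its log2 ratio of -0.13 turned to 0.26 when only tags identical to the RefSeq entry were counted.

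miR-199a-5p, the other strand of the same duplex, had 12827 reads in the control (891 RPM, 876 to 907), 10140 at 1 h (773 RPM, 758 to 788), 11914 at 3 h (829 RPM, 814 to 844) and 10831 at 24 h (745 RPM, 731 to 759). It was below the control in all 3 Ang II libraries per total reads, with ratios of 0.867 (0.845 to 0.890), 0.930 (0.907 to 0.954) and 0.836 (0.815 to 0.858), but not at 24 h with TMM factors. Its log2 ratio at 24 h was -0.26, close to the median of all miRNAs, and 0.0030 with TMM factors.

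miR-214-3p, the strand of miR-214 usually studied, had 814 reads in the control (56.5 RPM, 52.7 to 60.6), 570 at 1 h (43.4 RPM, 39.95 to 47.2), 590 at 3 h (41.1 RPM, 37.8 to 44.5) and 580 at 24 h (39.9 RPM, 36.7 to 43.3). All 3 Ang II libraries lay below the control with no overlap of the counting intervals, and they overlapped each other. Its ratios of 0.768 (0.689 to 0.856), 0.726 (0.652 to 0.808) and 0.706 (0.633 to 0.786) were the lowest of the members at each time. In order of log2 ratio it was 28th from the lowest of 170 miRNAs at 1 h, 18th of 172 at 3 h and 47th of 174 at 24 h. At 3 h its log2 ratio was -0.45, and -0.57 scaled to miRNA reads and -0.40 with TMM factors. At 24 h its log2 ratio was -0.49, and -0.57 scaled to miRNA reads and -0.24 with TMM factors. Counting only tags identical to the RefSeq entry, 129 reads in the control and 130 at 24 h, gave -0.0025.

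miR-214-5p had 336 reads in the control (23.3 RPM, 20.9 to 26.0), 331 at 1 h (25.2 RPM, 22.6 to 28.1), 300 at 3 h (20.9 RPM, 18.6 to 23.4) and 295 at 24 h (20.3 RPM, 18.05 to 22.7). The intervals of all 4 libraries overlap at this depth. The ratios were 1.08 at 1 h (0.926 to 1.26), 0.894 at 3 h (0.763 to 1.05) and 0.870 at 24 h (0.741 to 1.02).

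The Ang II libraries were also compared with each other. From 1 h to 3 h 0 of 4 were called, beside 0% of 166 miRNAs called lower and 1.2% higher, and from 3 h to 24 h 0 of 4, beside 11.2% of 169 lower and 3.55% higher. From 1 h to 24 h 0 of 4 were called as well, beside 7.88% of 165 lower and 3.64% higher. miR-199a-3p at 24 h stood at 1.13 times the 3 h level (1.10 to 1.15) and miR-199a-5p at 0.899 times (0.876 to 0.923). For miR-214-3p these steps were 0.945 (0.841 to 1.06) and 0.972 (0.865 to 1.09), and for miR-214-5p 0.827 (0.705 to 0.970) and 0.972 (0.825 to 1.15).

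**Figure D2:**
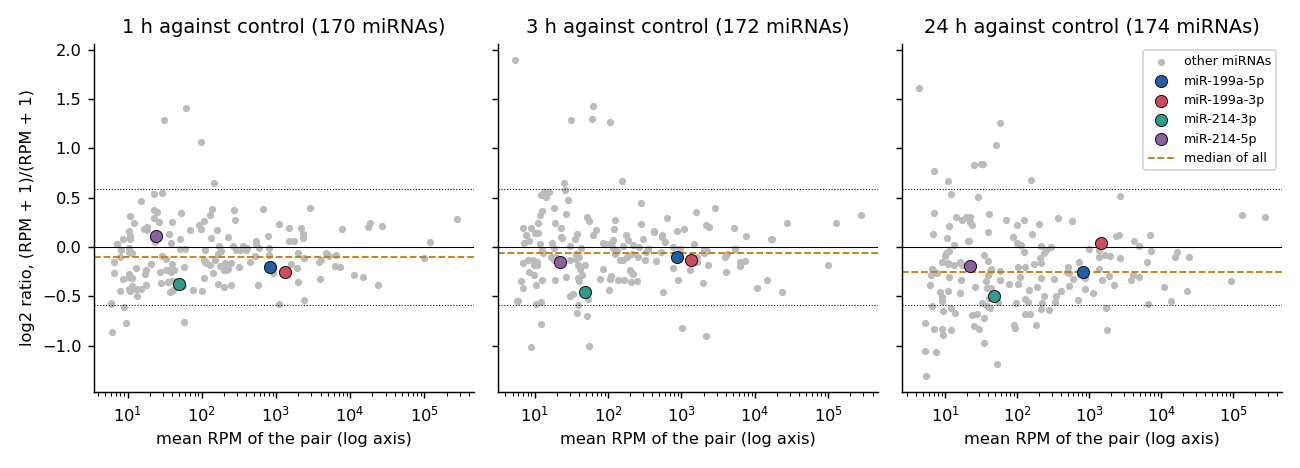
Log2 ratio of (RPM + 1) to the control (y axis) against the mean RPM of both libraries (x axis, log) for all miRNAs with 100 reads in the higher library (grey) and the 4 members (coloured), at 1 h, 3 h and 24 h. The dotted lines mark 1.5-fold and the dashed line the median of all miRNAs, and the members lie between the dotted lines at each time.

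The arm balance of a hairpin is a share within 1 library and needs no scaling. For miR-199a the 5p arm held 38.5% of the reads of both arms in the control (38.0 to 39.0), 39.2% at 1 h (38.6 to 39.8), 39.0% at 3 h (38.4 to 39.5) and 33.7% at 24 h (33.2 to 34.3). The control, 1 h and 3 h libraries were alike, and the 24 h library lay below them with no overlap of intervals. In reads, the 3p arm was 1.60 times the 5p arm in the control and 1.96 times at 24 h. With tags starting up to 2 nt away included, the 5p share was 30.7%, 31.6%, 31.5% and 26.97%, again lowest at 24 h. Counting only tags identical to the RefSeq entries gave 86.4%, 84.9%, 83.0% and 83.2%, and there the 24 h library was no longer the lowest. In the control that setting kept 85.5% of the 5p reads and 8.44% of the 3p reads. At 3 h it kept 85.1% and 11.1%. Such values change with the 3' ends of the 3p arm and do not check the arm balance.

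For miR-214 the 5p arm held 29.2% in the control (26.6 to 31.9), 36.7% at 1 h (33.6 to 39.98), 33.7% at 3 h (30.6 to 36.9) and 33.7% at 24 h (30.6 to 37.0). The control was lowest, and its interval was clear of the 1 h library alone. Among tags at the mature start that lie wholly within the hairpin the 5p share was 52.9%, 59.4%, 52.7% and 52.1%. There the control was no longer the lowest and the 1 h library stayed the highest. With nearby starts included, hairpin tags of the 5p arm had 389, 361, 361 and 317 reads. Those of the 3p arm had 551, 436, 526 and 447, so the 3p arm was the larger in each library. Of 27 hairpins with 100 reads in both arms in every library, miR-214 had the 12th largest range of the arm ratio over the 4 libraries and miR-199a the 20th. These ranges were 0.49 and 0.34 on the log2 scale, beside a median of 0.47.

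**Figure D3:**
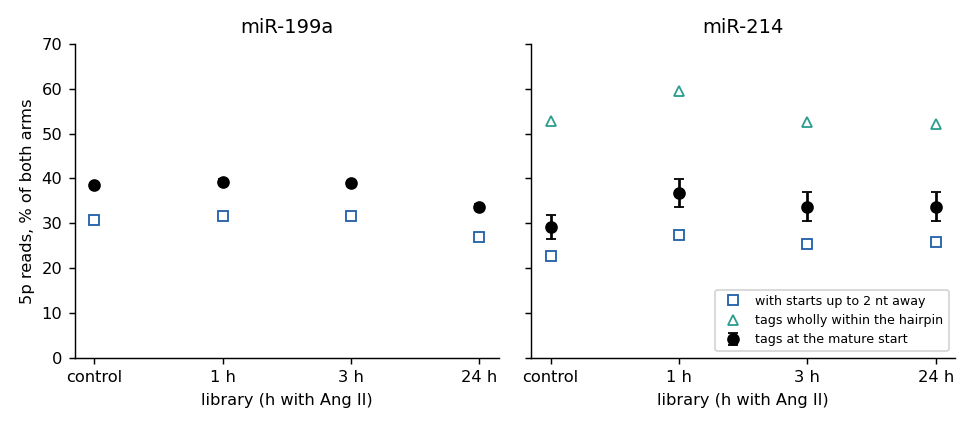
Share of 5p reads in the reads of both arms (y axis, %) for miR-199a (left) and miR-214 (right) in the 4 libraries (x axis), as filled points with exact 95% binomial intervals. Open squares add tags that start up to 2 nt away and open triangles use tags at the mature start that lie wholly within the Mir214 hairpin. The miR-199a share is lowest at 24 h with both sets of tags shown, at 33.7% and 26.97%.

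The 2 hairpins were read at unequal depth throughout. There were 3.97 miR-214-3p reads per 100 miR-199a-3p reads in the control (3.70 to 4.26), 3.63 at 1 h (3.33 to 3.94), 3.16 at 3 h (2.91 to 3.43) and 2.73 at 24 h (2.51 to 2.96). The control and 24 h intervals do not overlap, and each neighbouring pair of times does. Counting only tags identical to the RefSeq entries gave 7.45, 7.13, 6.08 and 7.03, where the 3 h library was lowest. In the control that setting kept 15.8% of the miR-214-3p reads and 8.44% of the miR-199a-3p reads, so it also changes with the 3' ends. For the 5p arms, miR-214-5p had 2.62 reads per 100 of miR-199a-5p in the control (2.34 to 2.92), 3.26 at 1 h (2.92 to 3.64), 2.52 at 3 h (2.24 to 2.82) and 2.72 at 24 h (2.42 to 3.06), with the highest value at 1 h.

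The members differed in how sharply their 3' ends were set. miR-199a-5p and miR-214-5p ended mostly at 1 position. Tags identical to the printed sequence held 85.5% of the miR-199a-5p reads in the control and 84.6% at 24 h, and 84.8% and 83.7% of the miR-214-5p reads. For miR-214-5p this sequence is by choice the most read tag. Over 146 other miRNAs the median share identical to the RefSeq entry was 41.7% in the control. A sharp end away from the entry's end also lowers that share, so it does not measure sharpness alone. It is also not the same measure as the share of a chosen tag. The second form of miR-199a-5p lacked the last base and held 9.43% in the control and 10.1% at 24 h.

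miR-199a-3p was mostly shorter than its RefSeq entry. Its 3 leading forms are printed with the last base or bases that vary at the end.
1 nt shorter: acaguagucugcacauugguu
2 nt shorter: acaguagucugcacauuggu
RefSeq length: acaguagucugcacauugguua
The form 1 nt shorter held 57.6% of the reads without Ang II, 56.6% after 1 h, 55.7% after 3 h and 58.7% after 24 h. The form 2 nt shorter held 22.6%, 22.5%, 22.3% and 23.3%. The RefSeq length was the third form, with 8.44% in the control (8.07 to 8.83), 9.72% at 1 h (9.26 to 10.2), 11.1% at 3 h (10.7 to 11.6) and 8.70% at 24 h (8.32 to 9.08). It was thus highest at 3 h, with no overlap with the other libraries. Tags that ran past the RefSeq end held 6.99% in the control (6.64 to 7.34), 6.96% at 1 h (6.57 to 7.37), 6.88% at 3 h (6.52 to 7.25) and 5.16% at 24 h (4.87 to 5.46), lowest at 24 h.

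**Figure D4:**
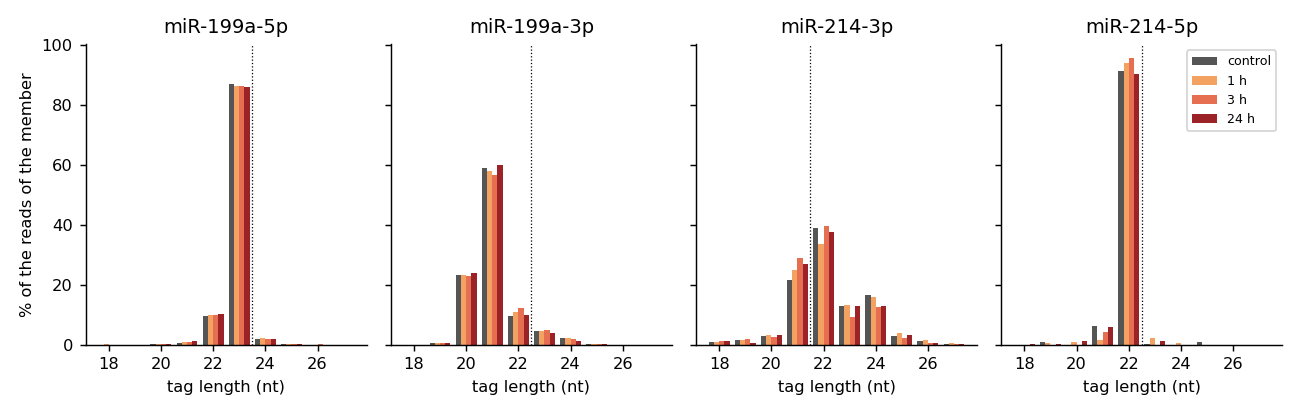
Length of the tags of each member (x axis, nt) as a share of its reads (y axis, %) in the 4 libraries, with a dotted line at the right edge of the printed sequence's length. miR-199a-5p and miR-214-5p have 1 main length, miR-199a-3p peaks 1 nt short of its RefSeq entry, and miR-214-3p spreads from 21 to 24 nt.

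miR-214-3p had the most mixed 3' ends of the members. Tags identical to its entry held 15.8% of its reads without Ang II, 19.1% after 1 h, 21.4% after 3 h and 22.4% after 24 h. Tags that ran past the end held 65.7%, 63.7%, 59.3% and 63.8%. Over the 146 other miRNAs the median in the control was 12.1%, with a range of 0% to 99.9%. The forms that held at least 5% are printed with the added base in the last place, since only the added u is in the hairpin.
no added base: acagcaggcacagacaggcag
added g: acagcaggcacagacaggcagg
added u: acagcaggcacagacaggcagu
added a: acagcaggcacagacaggcaga
A g followed the mature end, alone or with more bases, in 34.5% of the reads in the control (31.3 to 37.9), 34.4% at 1 h (30.5 to 38.4), 25.8% at 3 h (22.3 to 29.5) and 28.3% at 24 h (24.6 to 32.1). Over all libraries this share was 31.0%. Among 95 other miRNAs whose hairpin has no g there, the median was 0.0804% and the highest 6.15%.

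The reads of miR-214-3p were therefore divided into tags that lie wholly within the Mir214 hairpin and tags that do not, a division chosen after the values were seen. Tags within the hairpin had 271 reads in the control (18.8 RPM, 16.7 to 21.2), 204 at 1 h (15.5 RPM, 13.5 to 17.8), 250 at 3 h (17.4 RPM, 15.3 to 19.7) and 250 at 24 h (17.2 RPM, 15.1 to 19.5). Tags not wholly within it had 543 reads in the control (37.7 RPM, 34.6 to 41.0), 366 at 1 h (27.9 RPM, 25.1 to 30.9), 340 at 3 h (23.7 RPM, 21.2 to 26.3) and 330 at 24 h (22.7 RPM, 20.3 to 25.3). The first set overlapped the control in all 3 Ang II libraries and the second in none.

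The ratio to the control at 24 h was 0.914 (0.766 to 1.09) for tags within the hairpin and 0.602 (0.523 to 0.691) for the others. At 3 h these ratios were 0.924 (0.775 to 1.10) and 0.627 (0.546 to 0.720), and at 1 h 0.826 (0.685 to 0.994) and 0.740 (0.646 to 0.846). The share within the hairpin was 33.3% in the control and 43.1% at 24 h, a difference of 9.81 points. Among 130 other miRNAs with a hairpin in the table the median share was 88.2% in the control, with 2 below miR-214-3p, and the median difference at 24 h was 1.23 points, with 2 above it. The ratio of miR-214-3p given earlier thus includes a large share of tags that the hairpin does not contain, and their source was not tested. For miR-214-5p 90.5% of the reads lay within the hairpin in the control and 92.2% at 24 h.

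The 5' ends, which set the seed, were also mixed for both 3p arms. Tags that start 1 nt before the mature start began with u in 99.8% of the reads for each of the 2 arms. Their most read forms carry other seeds than the mature entries.
miR-199a-3p, 1 nt before: uACAGUAGucugcacauugguu
miR-214-3p, 1 nt before: uACAGCAGgcacagacaggcag
These 2 seeds differ at 1 of 7 bases, U6C, counted from the 5' end of the longer miR-199a-3p form. Of the miR-199a-3p tags starting within 2 nt of the mature start, those 1 nt before held 24.9% in the control (24.4 to 25.4), 24.1% at 1 h, 23.9% at 3 h and 23.8% at 24 h (23.3 to 24.3). For miR-214-3p the share was 35.99% in the control (33.5 to 38.5), 42.3% at 1 h (39.3 to 45.3), 43.8% at 3 h (40.9 to 46.7) and 38.5% at 24 h (35.5 to 41.5), with the 1 h and 3 h libraries above the control. Of the reads at the mature start or 1 nt before it, the earlier start held 42.2% for miR-214-3p and 25.5% for miR-199a-3p, against a median of 0.0665% over 146 other miRNAs. Of those others 2 were above miR-214-3p and 5 above miR-199a-3p.

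The earlier start of miR-214-3p had 532 reads without Ang II, 451 after 1 h, 493 after 3 h and 390 after 24 h. Its ratio to the control was 0.930 at 1 h (0.819 to 1.06), 0.928 at 3 h (0.820 to 1.05) and 0.726 at 24 h (0.635 to 0.829), so that the 24 h library alone was clear of the control. A g followed the mature end in 16.2% of these tags in the control (13.1 to 19.6) and in 13.6% at 24 h (10.3 to 17.4). The earlier start of miR-199a-3p had ratios to the control of 0.806 (0.778 to 0.835), 0.859 (0.831 to 0.889) and 0.959 (0.928 to 0.992).

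Of the 5p arms, miR-199a-5p began almost only at the mature start, while miR-214-5p had a second start 1 nt later. Of the miR-199a-5p tags starting within 2 nt, 98.5% in the control and 98.8% at 24 h began at the mature start. For miR-214-5p 77.1% did in the control and 83.8% at 24 h, and 21.8% and 15.3% began 1 nt later.

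**Figure D5:**
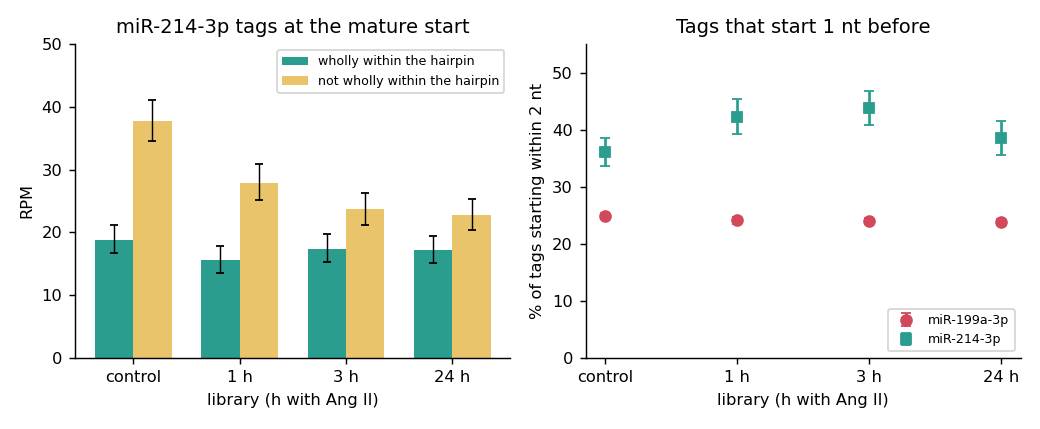
Left, RPM (y axis) of miR-214-3p tags at the mature start that lie wholly within the Mir214 hairpin and of those that do not, in the 4 libraries, with exact 95% Poisson intervals; the second set runs from 37.7 RPM in the control to 22.7 RPM at 24 h. Right, share of tags (y axis, %) that start 1 nt before the mature start among tags starting within 2 nt, for both 3p arms with exact 95% binomial intervals.

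The miRNAs whose levels were most like each member's over the 4 libraries were found by the Euclidean distance between log2(RPM + 1) values, each set to its own mean, among 152 miRNAs with at least 100 reads in every library. For miR-199a-5p they were miR-27b-5p, let-7d-5p and miR-324-5p, at distances of 0.05 to 0.08. For miR-199a-3p they were the shared start of miR-23a-3p and miR-23b-3p, then miR-222-3p and miR-1843a-5p, at 0.07 to 0.09. For miR-214-3p they were let-7b-5p, miR-106b-3p and miR-99b-5p, at 0.04 to 0.08, and for miR-214-5p let-7e-5p, miR-30c-5p and miR-365-3p, at 0.11 to 0.13. The distances between members ran from 0.25 for miR-199a-5p and miR-214-3p to 0.42 for miR-199a-3p and miR-214-5p. The miRNAs named above were picked for the smallest distances, so they are no yardstick for the members. The median distance of the 152 candidates was 0.33 from miR-199a-5p, 0.45 from miR-199a-3p, 0.42 from miR-214-3p and 0.37 from miR-214-5p.

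Of 20 other miRNAs listed for mesenchymal cells and smooth muscle, 17 had a RefSeq entry under the listed name and 16 had 100 reads. The listed miR-31-5p did not match by name, and the entry miR-31a-5p, with 8299 reads in the control, was not counted for it. At 1 h 1 of 16 was called higher, beside 2.35% of all miRNAs, at 3 h 2, beside 4.07%, and at 24 h 2, beside 5.17%. Of the 16, 0 were called lower at any time, beside 2.35%, 4.65% and 17.2% of all miRNAs, the last being 6.32% with TMM factors. Listed but without 100 reads, miR-10b-5p could not be called. It had 44 reads in the control and 42, 14 and 12 reads after 1 h, 3 h and 24 h. Its log2 ratios were 0.05, -1.04 and -1.15. miR-21-3p, the minor arm of the miR-21 hairpin, went from 17.6 RPM in the control to 44.4, 44.5 and 32.1 RPM. miR-29b-3p, which acts on collagen mRNAs, went from 120 RPM to 157, 192 and 193 RPM. The list's median log2 ratios were -0.08, -0.10 and 0.13 at 1 h, 3 h and 24 h, beside the medians of all miRNAs given earlier.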

How the data were processed

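The authors deposited, per the labels, 1 file of small RNA reads for each library, made from total RNA and sequenced on a Genome Analyzer IIx. Each deposited file lists distinct sequences with their raw read counts, not normalized (from the values: whole numbers, tags of 16 to 42 nt). Novoalign and the build rn4 are named per the submitters' processing notes, with no role. Trimming and filtering steps are not stated in the labels. A row that names no sequence held 5.13% to 7.07% of each file's reads and was left out.

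Mature and hairpin sequences were read from a RefSeq table (GRCr8, 724 mature entries). All 4 members had an entry. Entries with the same first 18 nt were joined. The 17 nt entry of miR-214-5p was replaced by the 5' arm tag with the most reads, chosen from the data. RPM is scaled to 1000000 reads that name a sequence, and 1 RPM was added before log2 ratios. Poisson, Clopper-Pearson and conditional binomial intervals were exact.

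The members and lists were chosen with earlier results of these data known. Named besides the members were the 3 miRNAs most like each, called members of the list, and tags with at least 5% of a member's reads. Marker lists not described in the report summed, over the 4 libraries, to 3.97 to 6.71 RPM (epithelial), 98.4 to 122 RPM (striated muscle), 0.0688 to 0.229 RPM (liver) and 31.6 to 43.8 RPM (neural).

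Calling was run on simulated data for each Ang II time against the control, with 167, 168 and 166 miRNAs tested. Of 40 miRNAs changed 2-fold, chosen from those with at least 300 expected reads, 40 were recovered. Such changes lie past the 1.5-fold limit and the simulated counts held counting error alone. The run thus checks the code and does not bear on smaller changes, fewer reads or variation between libraries. Alternatives were 3 scalings (miRNA reads, TMM factors, median-of-ratios factors), a pseudocount of 10 RPM, read minimums of 0 and 1000, a 2-fold limit, 5 other choices of tags and the 1 h library as reference. Added after seeing the data were the 17 nt entry and tags wholly within the hairpin. TMM factors came from edgeR 4.0.16 in R 4.3.3, intervals from scipy 1.17.1, tables from pandas 2.3.3 with numpy 2.4.6, and plots from matplotlib 3.10.9, in Python 3.11.15.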

Additional observations from a re-analysis of the deposited data

How the results depend on the processing

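The count of members past 1.5-fold was 0 of 4 at each time with each scaling, with 5 other choices of tags (those wholly within the hairpin not among them), and with the 1 h library as reference. The 2-fold limit, the larger pseudocount and the other read minimums could not raise a count of 0 and bear on nothing here, and the 17 nt entry has too few reads to be called. Of 125 other values of the members' log2 ratios 38 left the counting interval of the reported value and 9 took the opposite sign. These counts include ratios to the 1 h library and those of the 17 nt entry, which are not other measures of the reported ratio. At 24 h the median log2 ratio of all miRNAs was -0.25, and 0.0019 with TMM and -0.01 with median-of-ratios factors. With these 2 sets of factors miR-199a-3p had log2 ratios of 0.30 and 0.29, miR-214-5p 0.06 and 0.04, miR-199a-5p 0.0030 and -0.01, and miR-214-3p -0.24 and -0.25. Scaled to miRNA reads, miR-199a-3p had -0.03 at 24 h, where the reported value was 0.04. With that scaling miR-214-3p had -0.57 at 3 h and -0.57 at 24 h, where the reported values were -0.45 and -0.49. With identical tags alone miR-214-3p had -0.0025 at 24 h and miR-199a-3p 0.26 at 3 h, opposite in sign to the reported -0.13. At 24 h 25.3% of miRNAs were called lower and 5.17% higher when scaled to miRNA reads, and 6.32% and 8.62% with TMM factors. No paired analysis was possible because each group is 1 library.

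The 5p share of miR-199a in the control, 1 h, 3 h and 24 h libraries was 86.4%, 84.9%, 83.0% and 83.2% with identical tags alone, and 30.7%, 31.6%, 31.5% and 26.97% with tags starting up to 2 nt away. With 1 mismatch allowed it was 37.8% in the control. The 5p share of miR-214 was 68.8%, 72.3%, 67.8% and 65.5% with identical tags alone, and 22.8%, 27.3%, 25.4% and 25.8% with starts up to 2 nt away. With tags at the mature start wholly within the hairpin it was 52.9%, 59.4%, 52.7% and 52.1%. With the 17 nt entry it was 0%, 0%, 0.338% and 0.344%. The number of miR-214-3p reads per 100 of miR-199a-3p was 7.45, 7.13, 6.08 and 7.03 with identical tags alone, 5.04, 4.79, 4.30 and 3.41 with starts up to 2 nt away, and, without tags read once, 3.602 in the control and 3.31 at 1 h. For the shares of identical tags only the settings without tags read once and with tags of 19 to 25 nt were run. No share moved, but neither setting removes the identical tags, so this says little. With 295 to 336 reads of miR-214-5p per library, the interval of its ratio to the control included 1 at each time.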

Other observations

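Tags of miR-214-3p that start 2 nt after the mature start had 89 reads without Ang II and 24, 16 and 19 reads after 1 h, 3 h and 24 h, or 6.02% of the tags starting within 2 nt in the control and 1.42% to 2.25% in the Ang II libraries. Tags with that start that lie wholly within the Mir214 hairpin had 35, 15, 5 and 9 reads. Outside both arm products the hairpin held 4, 3, 1 and 3 reads. On the opposite strand, where the hairpin of miR-3120 is annotated, no tag of at least 16 nt lay wholly within the sequence, with 0 reads in each of the 4 libraries.

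Tags with exactly 1 mismatch in the first 18 nt held 7.23% of the reads with at most 1 mismatch for miR-199a-5p, 9.17% for miR-199a-3p, 10.2% for miR-214-3p and 6.45% for miR-214-5p, over the 4 libraries together.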
